A study of Mus musculus with 24 samples.

Results

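The 6 arrays described here set duodenal against gastric reflux in the oesophagus of Nrf2-null mice; Nfe2l2 is the gene for Nrf2, a transcription factor. They are the 3 arrays of the Nrf2-null duodenal reflux group and the 3 arrays of the Nrf2-null gastric reflux group, 6 of the 24 arrays of the series, and they were taken by their labels alone. Every mouse of both groups was Nrf2-/-, C57BL/6J, male and 12 weeks old per the labels, and had reflux for 4 weeks. By these labels the groups differ in the type of reflux. Nrf2-null mice without reflux and wild-type C57BL/6J mice with gastric or duodenal reflux, 3 arrays each and of the same sex and age per the labels, are used as context. How reflux was produced and which part of Nfe2l2 was removed are not given in the sources used here. Any difference in how reflux was produced cannot be told apart from that of the fluid. Arrays of 1 group are biological replicates per the labels, and p-values measure the spread between them. Cy5 marked the RNA of the oesophagus, and Cy3 a commercial reference RNA pooled from 11 mouse cell lines. A level below is the log2 of Cy5 over Cy3, where 0 means as much as in the reference. A difference is the duodenal minus the gastric mean on that scale, with the standard error of the fit after ±.

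The oesophagus is lined by a stratified squamous epithelium, in which basal keratinocytes divide and their daughters move upwards while they make differentiation keratins and the cornified envelope. Gastric reflux carries acid and pepsin, and duodenal reflux carries bile acids and pancreatic enzymes. Nrf2 switches on genes for glutathione synthesis, antioxidant enzymes and detoxification, and both groups lack it, so the contrast compares the types of reflux in its absence.

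The labels name the tissue as whole oesophagus, while the source names speak of epithelium. Both squamous and muscle genes were far above the reference on all 6 arrays: the basal marker Krt5 lay between 3.64 and 5.55, the suprabasal keratin Krt4 between 6.25 and 8.38, and the muscle creatine kinase Ckm between 3.00 and 6.52. Nfe2l2 lay between -3.81 and -2.83, against means of 1.68 and 2.11 in the wild-type gastric and duodenal groups, and its target Nqo1 between -0.86 and -0.42, so all 6 arrays carried the level of their genotype. Bulk tissue was measured, so more cells of a type and more RNA per cell cannot be told apart.

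Several arrays stood apart. The median Cy5 intensity was 88.2 on gastric replicate 1 and 85.3 on duodenal replicate 2, and 153 to 245 on the other 4 arrays. These 2 arrays of low Cy5 signal correlated more closely with each other (r = 0.905 across genes, which are not independent replicates) than with the arrays of their own groups (0.755 and 0.789 for the gastric one, 0.894 for both pairs of the duodenal one). Duodenal replicates 1 and 3 correlated at 0.990, and whether they came from separate mice was not tested beyond the labels; averaged as 1 sample, which was chosen after seeing the data, they left 722 genes called in the comparison below. Gastric replicate 2, labelled male like the others, had the lowest levels of the Y-linked genes Ddx3y (-4.20, against 0.67 to 1.17 on the other 5 arrays) and Eif2s3y (-4.09, against 1.47 to 2.58). It was also lowest for Kdm5d (-1.58, against 0.40 to 1.11) and Uty (-1.10, against -0.17 to 0.78). These Y-linked levels went against its label. The X-linked gene Xist was at -0.02 on it, close to the -0.48 to -0.10 of the other 5 arrays. The sex of the mouse was not tested further. All 6 arrays were scanned on a single day, and both groups had arrays on slide 6, which held gastric replicates 2 and 3 and duodenal replicates 1 and 2.

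Under duodenal reflux, RNA of many cytokines, neutrophil chemokines, matrix metalloproteinases and EGF-family ligands was higher in the Nrf2-null oesophagus than under gastric reflux. Of 20565 genes tested, 862 (4.19%) were called higher and 341 (1.66%) lower under duodenal reflux by limma's test at an adjusted p under 0.05, and the median difference of all genes was 0.025. At an unadjusted p under 0.05 the counts were 2345 (11.4%) and 1481 (7.2%). All 3 duodenal arrays lay above all 3 gastric arrays for 1978 genes (9.63%) and below them for 1224 (5.96%). The number of called genes moved widely with the arrays used. It was 59 when the spread came from these 6 arrays alone, 300 when arrays were centred on their medians, 785 without duodenal replicate 1, 738 without duodenal replicate 3 and 3956 without gastric replicate 1. Leaving out both low-Cy5 arrays, an alternative chosen after seeing the data, gave 2563. Without gastric replicate 2, the array whose Y-linked levels went against its sex label, 903 genes were called.

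Against Nrf2-null mice without reflux, which both comparisons share, duodenal reflux had 2773 genes called higher (13.5%) and 1287 lower (6.26%), and gastric reflux 90 higher (0.438%) and 29 lower (0.141%). S100a8 differed from no reflux by 7.62 under duodenal and 1.93 under gastric reflux, and Igfbp1, one of the few genes called under gastric reflux, by 0.90 and 2.61. Of the arrays without reflux, 2 were scanned on an earlier day than the 6 reflux arrays.

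**Figure D1:**
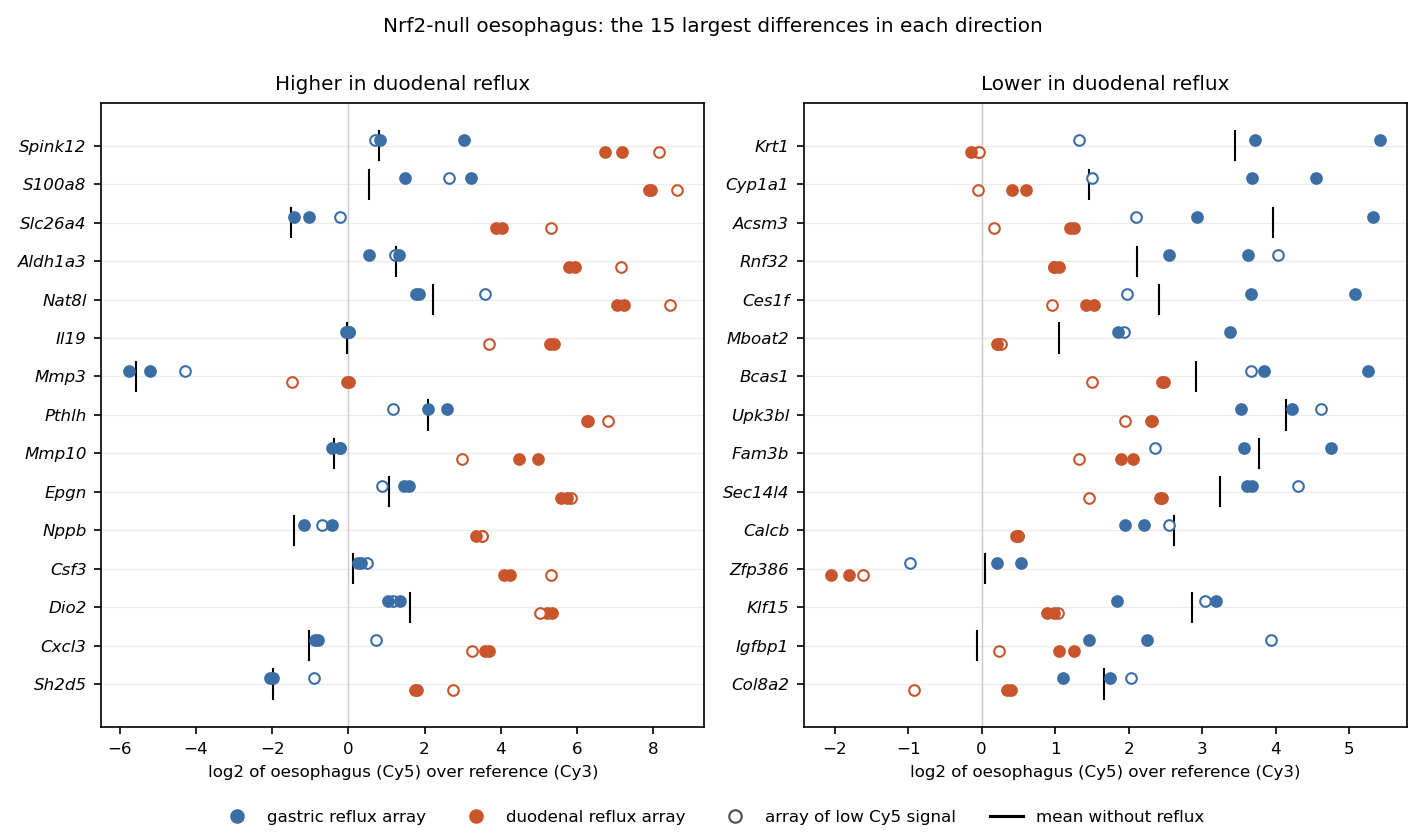
Levels (log2 of Cy5 over Cy3, horizontal axis) of the 15 genes with the largest called differences in each direction on the 6 Nrf2-null arrays; each point is an array, open points are the 2 arrays of low Cy5 signal, and the black line is the mean of the Nrf2-null group without reflux. In the left panel the gastric arrays of most genes sit near that line and the duodenal arrays lie far to its right; in the right panel the gastric points spread more widely, as for Krt1, from 1.33 to 5.41.

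Of the 15 genes with the largest called differences upwards, 6 were not well above background on all 3 gastric arrays, and of the 15 downwards 7 were not on all 3 duodenal arrays, so the sizes of those differences rest on dim values. Spink12, a Kazal-type serine protease inhibitor, led with levels of 0.71, 3.04 and 0.84 on the gastric and 6.74, 8.16 and 7.19 on the duodenal arrays (difference 5.83 ± 0.91, adjusted p = 0.00108). S100a8, a subunit of the antimicrobial protein calprotectin, lay at 2.65, 3.23 and 1.49 on the gastric and at 7.94, 8.62 and 7.89 on the duodenal arrays (5.70 ± 0.79, adjusted p = 0.000394). For both genes the highest gastric array stayed well under the lowest duodenal array. Slc26a4 encodes pendrin, an exchanger of chloride, iodide and bicarbonate. Its levels were -0.21, -1.42 and -1.03 under gastric and 4.04, 5.31 and 3.88 under duodenal reflux (5.30 ± 0.72, adjusted p = 0.000327). Nat8l, the enzyme that makes N-acetylaspartate, rose from 3.60, 1.85 and 1.77 to 7.05, 8.43 and 7.24 (5.17 ± 0.70), a difference of 3.02 with the scanner software's log ratios. Pthlh, parathyroid hormone-related protein, rose by 4.50 ± 0.59, the natriuretic peptide gene Nppb by 4.22 ± 0.57 and the adaptor gene Sh2d5 by 3.75 ± 0.39, each with groups that did not overlap. Dio2, the deiodinase that activates thyroid hormone, lay at 1.16, 1.04 and 1.37 on the gastric and 5.22, 5.02 and 5.34 on the duodenal arrays (4.00 ± 0.49, adjusted p = 0.000178). All 15 of these genes were also called in the fit of the 6 arrays alone, and 14 of the 15 under every alternative tried; Spink12 missed the threshold with the deposited value table. The 15 were higher both between the 2 arrays of low Cy5 signal and among the other 4 arrays.

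Cytokines of the interleukin 20 family, which signal from immune cells and keratinocytes to epithelium, separated the groups widely. Il24, whose probe lies on chromosome 1 at 132778780 to 132778839 in mm9, stood at 0.47, 0.30 and 0.31 on the gastric and at 3.05, 3.47 and 3.01 on the duodenal arrays. Its difference of 2.82 ± 0.18 had the smallest p of all named genes (adjusted p = 1.47e-07). Il19 was not well above background on any gastric array, with levels of 0.02, 0.02 and -0.05, and reached 5.29, 3.68 and 5.39 on the duodenal arrays (fitted difference 4.79 ± 0.76, adjusted p = 0.00116). Its gastric level is thus only a bound, and the fitted difference gives no exact fold. The mean level without reflux was 0.34 for Il24 and -0.02 for Il19, near the gastric arrays in both.

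Genes that NF-kB, the central transcription factor of inflammatory signalling, is known to switch on were higher as a group. Of 30 listed genes 29 were tested, 17 were called higher and 0 lower, against 4.19% and 1.66% of all genes, and the median difference was 0.87. Csf3, the growth factor that raises neutrophil output, lay at 0.50, 0.33 and 0.26 on the gastric and at 4.08, 5.32 and 4.23 on the duodenal arrays (4.18 ± 0.39, adjusted p = 1.27e-05). Its probe lies on chromosome 11 at 98564614 to 98564673 in mm9. The groups were far apart for Csf3, and only 1 gastric array was well above background for it, as also for Il6. Il6 rose from -1.97, -3.48 and -3.36 to 0.22, -0.66 and 0.33 (2.90 ± 0.50), and the acute-phase gene Saa3 from -1.96, -3.61 and -3.61 to 0.99, -1.91 and 0.90 (3.06 ± 0.82, adjusted p = 0.0357). For Saa3 the lowest duodenal and the highest gastric array, the 2 of low Cy5 signal, had nearly equal levels. Il1b, the inflammasome-processed cytokine, lay at 4.56, -0.12 and 0.60 on the gastric and 4.89, 5.65 and 4.83 on the duodenal arrays (3.44 ± 0.80, adjusted p = 0.0163). Gastric replicate 1 thus had nearly the duodenal level of Il1b. The count of 17 was 20 with both low-Cy5 arrays left out, 10 without gastric replicate 2 and 11 without gastric replicate 3. It was 10 with median centring and 1 in the fit of the 6 arrays alone. A gene was tested if well above background on every array of some group, which can be the group where it is high. With a filter that needs such signal on all 6 arrays the count was 12.

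The stretch before the start of 3 of these called genes is shown because members of the list moved together and each stretch holds a match to the κB consensus, the DNA sequence NF-kB proteins bind. The sequences are RefSeq's for build GRCm38.p6, 160 bases that end at the base before the annotated start, on the plus strand, and capitals mark the κB matches. Cxcl1 lies at chr5:90891085-90891244, Ccl20 at chr1:83116606-83116765 and Il6 at chr5:30012954-30013113.
Cxcl1: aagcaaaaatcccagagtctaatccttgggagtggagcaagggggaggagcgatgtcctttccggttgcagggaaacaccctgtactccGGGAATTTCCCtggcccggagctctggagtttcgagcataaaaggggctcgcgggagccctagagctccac
Ccl20: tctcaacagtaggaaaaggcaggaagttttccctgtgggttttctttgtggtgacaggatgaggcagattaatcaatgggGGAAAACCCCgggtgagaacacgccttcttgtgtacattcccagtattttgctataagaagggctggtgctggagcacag
Il6: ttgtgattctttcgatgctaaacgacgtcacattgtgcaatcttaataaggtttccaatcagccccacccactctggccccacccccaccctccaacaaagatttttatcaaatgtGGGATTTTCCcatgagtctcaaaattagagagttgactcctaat
The consensus was searched on both strands in the 250 bases before the start. Of the 29 members tested 23 had a promoter in the table, and 10 of these 23 (43.5%) held a match: 6 of the 15 called members and 4 of the 8 others. Among all genes tested that had a promoter the share was 8.3%, and among all promoters 7.0%. A match is a description of the letters and does not show binding.

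Chemokines that attract neutrophils led the chemokine list. Of its 31 tested members 9 were called higher and 0 lower (median 0.61), against 4.19% and 1.66% of all genes. Cxcl1, Cxcl5 and Ccl20 are also on the NF-kB list. Cxcl3 lay at 0.72, -0.88 and -0.79 on the gastric and 3.70, 3.25 and 3.59 on the duodenal arrays (3.83 ± 0.39, adjusted p = 2.86e-05). Cxcl1 rose from -3.87, -5.28 and -5.30 to -1.98, -2.08 and -1.88 (2.84 ± 0.38, adjusted p = 0.000313), and Cxcl5 from -2.77, -4.91 and -5.13 to 0.05, -2.01 and 0.04 (3.63 ± 0.87, adjusted p = 0.0194). In each of these 3 genes the highest gastric array was replicate 1. Cxcl3 and Cxcl5 were well above background on only 1 gastric array, and with the scanner software's log ratios they differed by 6.47 and 5.76. Ccl20, which draws dendritic cells and T cells through its receptor CCR6, rose from 0.47, 0.89 and 1.20 to 3.09, 2.62 and 3.29 (2.15 ± 0.22, adjusted p = 3.26e-05). Ppbp, also a platelet gene, rose by 2.12 ± 0.53 and was not called under 11 of 26 alternatives. The 9 calls were 4 without gastric replicate 2, 4 without duodenal replicate 1 and 3 without duodenal replicate 3. They were 5 with the filter on all 6 arrays, 3 with median centring and 1 in the fit of the 6 arrays alone.

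Of 18 tested neutrophil markers 9 were called higher and 0 lower, against 4.19% and 1.66% of all genes, with a median difference of 1.30. This list shares Lcn2 with the NF-kB list. It also shares S100a8 and S100a9 with the wounded keratinocyte list below, and Mmp8 with the metalloproteinase list. Retnlg, a resistin-like gene of neutrophils, lay at 1.69, 1.03 and 0.35 on the gastric and 3.89, 3.98 and 4.12 on the duodenal arrays (2.97 ± 0.50, adjusted p = 0.00179). Ltf, the iron-binding protein lactoferrin, rose from 3.31, 2.60 and 1.43 to 5.58, 5.98 and 5.62 (3.28 ± 0.73, adjusted p = 0.0119). Lcn2 rose by 2.55 ± 0.44 and the stefin gene Stfa2 by 2.48 ± 0.42. The 9 calls were 4 with the scanner software's log ratios, 5 with the deposited value table, 6 with the filter on all 6 arrays and 3 in the fit of the 6 arrays alone. Epithelium can also make S100a8, Lcn2 and stefins, and the mean of the whole list was 2.00 to 2.50 on the gastric and 3.75 to 4.09 on the duodenal arrays. The part of neutrophils in the higher chemokine and NF-kB genes was not tested. In other leukocyte lists, whose difference from the neutrophil list was not tested, 2 of 24 macrophage genes, 2 of 13 mast cell and eosinophil genes, 0 of 18 MHC class II and dendritic genes, 0 of 19 T and NK genes and 0 of 12 B and plasma cell genes were called higher by limma. Before adjustment, 3, 4, 3, 5 and 1 of their members had a p under 0.05 and a higher duodenal mean, as had 11.4% of all genes. The mast cell proteases Mcpt1 and Mcpt4 rose by 1.76 ± 0.38 and 1.29 ± 0.30, and the macrophage genes Arg1 and Cd14 by 0.88 ± 0.21 and 0.93 ± 0.24. Mcpt1 was not called under 6 of 26 alternatives, Mcpt4 and Arg1 under 8 of 27 and Cd14 under 9 of 27. Mcpt1 was well above background on only 2 gastric arrays. The uncalled members of the mast cell list went both ways, as Hdc (2.15 ± 0.68) and Cpa3 (-0.585 ± 0.575).

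**Figure D2:**
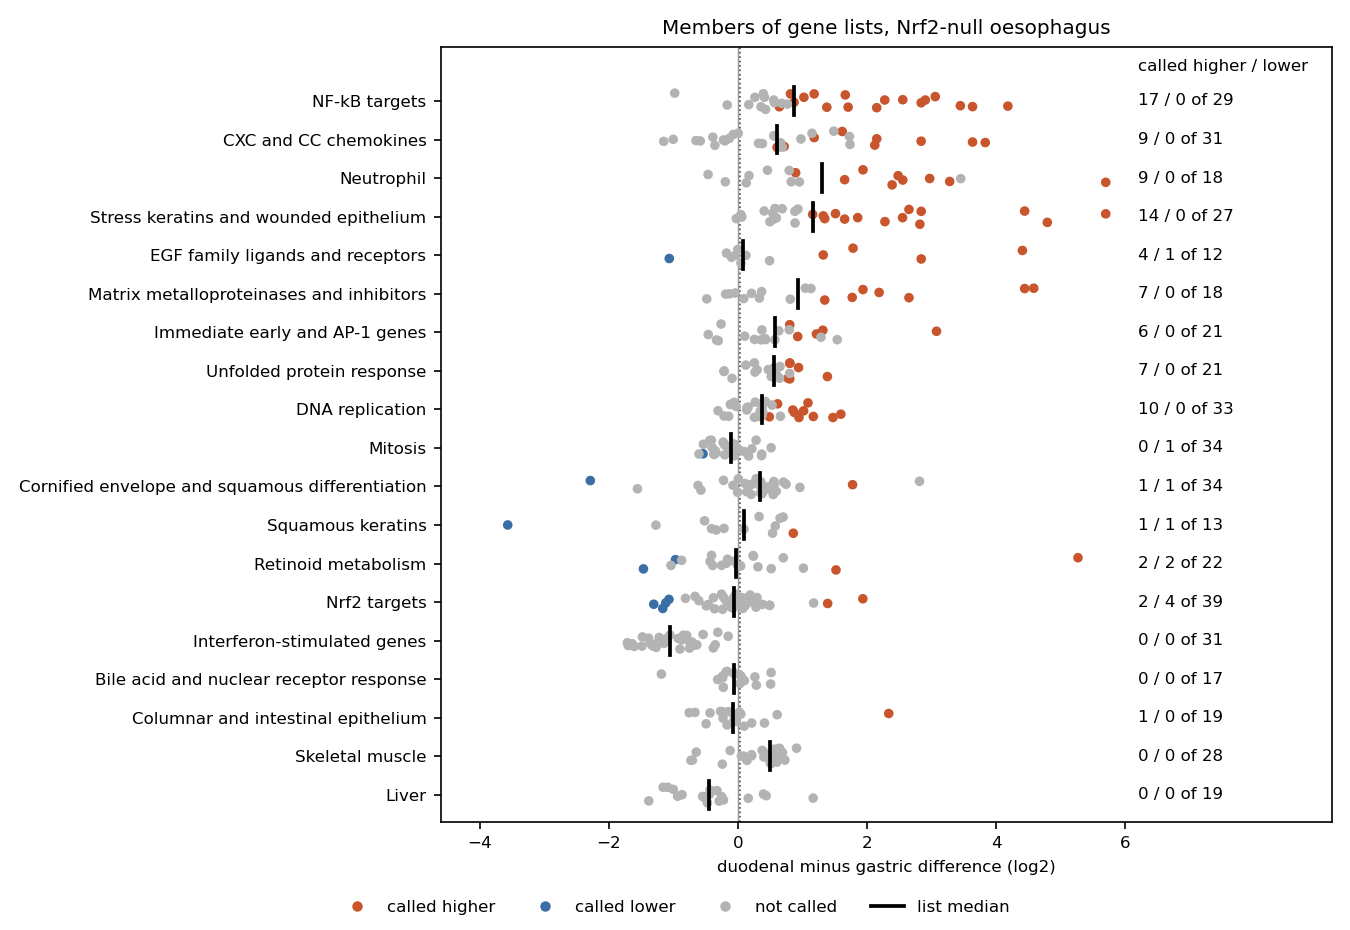
Duodenal minus gastric difference (log2, horizontal axis) of each tested member of 19 gene lists; coloured points passed limma's test at an adjusted p under 0.05, the black bar is the list's median, the dotted line the median of all genes (0.025), and the counts at the right give members called higher and lower. The NF-kB, neutrophil, wounded epithelium and metalloproteinase lists extend far to the right, interferon-stimulated genes lie to the left with 0 calls, and mitosis genes sit around 0.

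Genes of wounded or hyperproliferative keratinocytes formed the list with the second highest median, 1.16. Of 27 tested members 14 were called higher and 0 lower, against 4.19% and 1.66% of all genes. In 16 members of the list all duodenal arrays lay above all gastric arrays, against 9.63% of all genes. Besides S100a8, Il19 and Il24 it held Areg, the EGF-family ligand amphiregulin, which lay at 0.98, 0.10 and 0.59 on the gastric and 3.19, 3.62 and 3.38 on the duodenal arrays (2.84 ± 0.38, adjusted p = 0.000313). With both low-Cy5 arrays left out the count was again 14. It was 13 with median centring, 12 with the filter on all 6 arrays and 6 in the fit of the 6 arrays alone. Ligands of the EGF receptor family rose beyond Areg. Epgn, epigen, lay at 0.88, 1.47 and 1.60 on the gastric and 5.58, 5.85 and 5.73 on the duodenal arrays (4.41 ± 0.54, adjusted p = 0.000156). Nrg1, neuregulin, rose by 1.78 ± 0.27 and Hbegf, the heparin-binding ligand, by 1.32 ± 0.28. Egf itself went the other way, from 3.65, 3.71 and 2.60 to 2.03, 2.74 and 2.00 (-1.06 ± 0.30, adjusted p = 0.0469), with overlapping groups. It was not called under 16 of 27 alternatives. Of the 12 tested members of that family 4 were called higher and 1 lower, against 4.19% and 1.66% of all genes, and the median was 0.08.

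Proteases that cut extracellular matrix were higher. Of 18 tested metalloproteinases and inhibitors 7 were called higher and 0 lower, against 4.19% and 1.66% of all genes, with a median of 0.93. The wounded keratinocyte list also holds Mmp9, Mmp10 and Mmp13, and the neutrophil list Mmp8. Mmp3 and Mmp10 encode the stromelysins. Mmp3 lay at -4.30, -5.19 and -5.76 on the gastric and 0.01, -1.47 and -0.04 on the duodenal arrays (4.58 ± 0.75, adjusted p = 0.00153). Mmp10 lay at -0.21, -0.23 and -0.44 and at 4.49, 2.97 and 4.99 (4.44 ± 0.57, adjusted p = 0.000223), and the collagenase Mmp13 at -1.39, -1.69 and -1.11 and at 1.27, 1.29 and 1.20 (2.65 ± 0.36). In all 3 genes the groups were clearly apart, and duodenal replicate 2 was the lowest duodenal array of Mmp3 and Mmp10. Timp1, an inhibitor of these proteases, rose with them from -2.93, -3.45 and -3.46 to -0.92, -1.41 and -0.96 (2.19 ± 0.26, adjusted p = 0.000111). The neutrophil collagenase Mmp8 rose by 1.94 ± 0.36. With the filter on all 6 arrays 6 of the list were called, and in the fit of the 6 arrays alone 4. Structural matrix held fewer calls: of 25 tested fibroblast and matrix genes only the collagen cross-linking enzyme gene Lox was called (0.89 ± 0.25). Lox was not called under 13 of 27 alternatives. The median of the fibroblast and matrix list ran from 0.16 to 0.99 over the settings tried. Its difference from the metalloproteinase list was not tested.

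Immediate early genes respond to growth factors and stress within minutes. Of 21 tested, 6 were called higher and 0 lower (median 0.57), against 4.19% and 1.66% of all genes. Arc led with -0.73, -1.54 and -0.91 on the gastric and 1.50, 2.99 and 1.55 on the duodenal arrays (3.08 ± 0.49, adjusted p = 0.0013). Junb, a subunit of the AP-1 transcription factor, rose by 1.31 ± 0.25, Ier3 by 1.27 ± 0.19, the ERK phosphatase gene Dusp6 by 1.22 ± 0.30 and Myc by 0.93 ± 0.19, with 1 of 3 probes of Myc opposite in sign. The unfolded protein response restores folding in the endoplasmic reticulum. Of its 21 tested genes 7 were called higher and 0 lower (median 0.56), against the same shares of all genes. Its co-chaperone gene Dnajb9 rose from -0.67, 0.12 and 0.57 to 1.39, 1.32 and 1.46 (1.39 ± 0.24), and the chaperone gene Hsp90b1 by 0.94 ± 0.14, with 1 of its 2 probes opposite in sign. Herpud1, Pdia4 and Manf each rose by 0.80, and Manf was not called under 13 of 27 alternatives. With median centring the calls fell to 2 and 0 in the immediate early and the unfolded protein lists, and in the fit of the 6 arrays alone to 0 in both. The 7 unfolded protein calls were 3 without gastric replicate 2 and 4 without duodenal replicate 1 or 3.

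DNA replication and mitosis genes did not move together. Of 33 tested replication genes 10 were called higher and 0 lower, with a median of 0.37. Of 34 tested mitosis genes 0 were called higher and 1 lower, with a median of -0.11. Of all genes 4.19% were called higher and 1.66% lower. Mcm4, part of the replicative helicase, lay at -3.27, -3.22 and -2.65 on the gastric and -1.71, -1.23 and -1.79 on the duodenal arrays (1.47 ± 0.22, adjusted p = 0.00116). Rrm2, the regulated subunit of ribonucleotide reductase, rose by 1.59 ± 0.26, Mcm2 by 1.17 ± 0.19, Mcm10 by 1.08 ± 0.20 and cyclin E1, Ccne1, by 1.02 ± 0.17. The called mitosis gene was cyclin B2, Ccnb2, at -1.13, -0.90 and -0.93 on the gastric and -1.49, -1.59 and -1.50 on the duodenal arrays (-0.54 ± 0.14, adjusted p = 0.0319). Ccnb2 was not called under 12 of 27 alternatives. The other mitosis genes ran from -0.60 to 0.51, and the difference between the lists was not tested. Median centring left 1 replication gene called and the fit of the 6 arrays alone 0.

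**Figure D3:**
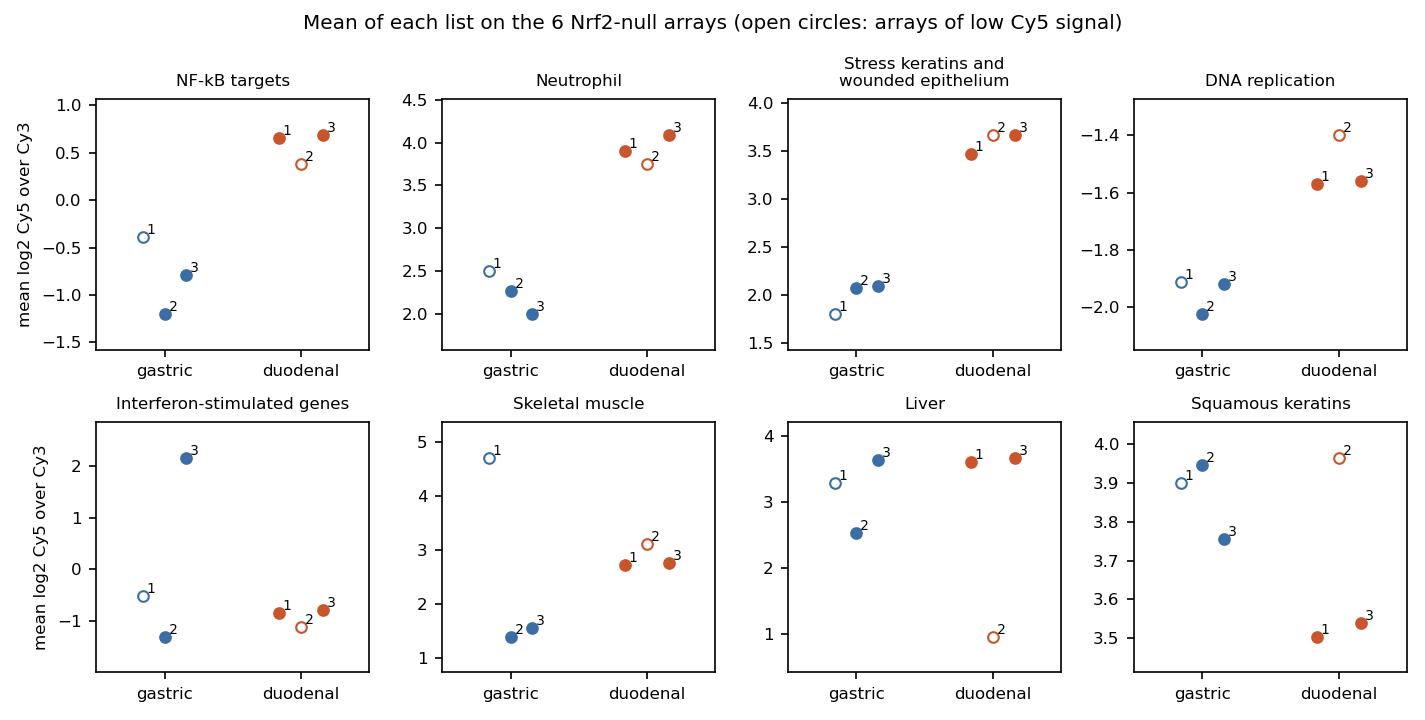
Mean level (log2 of Cy5 over Cy3, vertical axis, a different range in each panel) of 8 gene lists on each of the 6 Nrf2-null arrays, with the replicate number beside each point; open points are the arrays of low Cy5 signal. The NF-kB, neutrophil, wounded epithelium and replication means separate the groups, whereas interferon-stimulated genes, skeletal muscle and liver genes are set apart by single arrays.

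Of 34 tested cornified envelope genes 1 was called higher and 1 lower, and likewise 1 and 1 of 13 squamous keratins, against 4.19% and 1.66% of all genes. The cornified envelope calls were 6 higher and 4 lower without gastric replicate 1, 12 and 1 with scan day as a block, 12 and 4 on the shared slide, and 0 and 0 without gastric replicate 3 or any single duodenal array. Krt1, the partner of keratin 10 in suprabasal cells, had the largest called difference downwards by its brighter probe: 1.33, 5.41 and 3.72 on the gastric and -0.05, -0.04 and -0.14 on the duodenal arrays (-3.57 ± 0.74, adjusted p = 0.00747). That probe lies on chromosome 15 at 101676107 to 101676166 in mm9. The 2 probes of Krt1 disagreed in size: with the filter that needs signal on all 6 arrays, which leaves the other probe, Krt1 differed by -0.47 and was not called, and the mean of both gave -2.02. Ivl, the envelope precursor involucrin, went from 1.04, 4.61 and 3.48 to 1.10, 0.12 and 1.05 (-2.29 ± 0.58, adjusted p = 0.0271), with groups that overlapped through gastric replicate 1. In both genes the gastric array of low Cy5 signal was the lowest of its group. The small proline-rich envelope gene Sprr2h rose instead, from 3.30, 4.81 and 4.61 to 5.53, 6.78 and 5.74 (1.77 ± 0.50, adjusted p = 0.0441), and Krt84 rose by 0.86 ± 0.22. Sprr2h was not called under 18 of 27 alternatives and Krt84 under 14. Among 15 basal keratinocyte markers the laminin-binding integrins Itga6 and Itga3 were called higher (1.22 ± 0.20 and 0.89 ± 0.21).

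Enzymes that handle retinoids, which steer squamous differentiation, held calls in both directions. Of 22 tested, 2 were called higher and 2 lower, against 4.19% and 1.66% of all genes, and the median was -0.03. Aldh1a3, a dehydrogenase that makes retinoic acid, lay at 1.22, 0.53 and 1.32 on the gastric and 5.79, 7.14 and 5.94 on the duodenal arrays (5.27 ± 0.77, adjusted p = 0.000619). Its relative Aldh1a1 fell by 0.97 from 1.24, 1.41 and 1.41 to 0.45, 0.28 and 0.42 (SE 0.19, adjusted p = 0.0061). Adh7, the alcohol dehydrogenase of upper digestive epithelium, which oxidises retinol and ethanol, went from 4.49, 5.24 and 4.91 to 3.79, 2.87 and 3.59 (-1.46 ± 0.31). The groups did not overlap in any of these 3 genes, and the dehydrogenases Aldh1a3 and Aldh1a1 thus moved in opposite directions. Aldh1a3 is also on the aryl hydrocarbon receptor list, of whose 9 tested members only it and Cyp1a1 were called. Cyp1a1, a classical target, fell from 1.50, 3.68 and 4.55 on the gastric to 0.61, -0.04 and 0.41 on the duodenal arrays (-2.92 ± 0.51, adjusted p = 0.00225). The other members went both ways: Tiparp differed by 0.24 ± 0.32, Ahrr by -0.15 ± 0.36 and Cyp1b1 by -0.67 ± 0.31.

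Although both groups lack Nrf2, 6 of 39 tested Nrf2 target genes were called, 2 higher and 4 lower, and the list's median was -0.06, against 4.19% and 1.66% of all genes. The 4 lower calls were 8 without gastric replicate 1 and 1 with median centring, and scan day as a block gave 7 higher and 7 lower. Gsr, glutathione reductase, lay at -1.62, -2.05 and -1.90 on the gastric and 0.01, 0.32 and -0.09 on the duodenal arrays (1.93 ± 0.15, adjusted p = 3.9e-06). The aldo-keto reductase gene Akr1b8 rose from -2.72, -2.83 and -2.69 to -1.62, -0.92 and -1.52 (1.39 ± 0.22, adjusted p = 0.00157). Some glutathione transferases went down: Gstm1 from 0.39, 0.82 and 0.80 to -0.43, -0.56 and -0.50 (-1.17 ± 0.16), Gstm2 by -1.30 ± 0.20 and Gsta3 by -1.12 ± 0.22. With only 4 lower calls in the whole list, most transferases on it were not called. Gstm1 and Gsta3 were not called with median centring. In Gsr, Akr1b8, Gstm1, Gstm2 and Gsta3 the groups did not overlap. Gsr was called in the fit of the 6 arrays alone as well, and was the only Nrf2 target called there.

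Acsm3, an acyl-CoA synthetase for medium-chain fatty acids, lay at 2.10, 5.33 and 2.92 on the gastric and 1.20, 0.17 and 1.25 on the duodenal arrays (-2.58 ± 0.61), and the carboxylesterase gene Ces1f at 1.98, 5.08 and 3.67 and at 1.52, 0.95 and 1.43 (-2.28 ± 0.52). Gastric replicate 2 was the highest array in both. Rnf32 was 4.03, 3.62 and 2.54 under gastric and 1.04, 0.98 and 0.99 under duodenal reflux (-2.39 ± 0.31, adjusted p = 0.000258). Mboat2, Bcas1, Upk3bl, Fam3b and Sec14l4 differed by -2.16, -2.11, -1.93, -1.80 and -1.75, all called and with groups that did not overlap. Calcb, which encodes the sensory neuropeptide CGRP beta, went from 2.55, 2.20 and 1.95 to 0.49, 0.50 and 0.47 (-1.75 ± 0.28, adjusted p = 0.0013). It was the only one of the 15 largest differences downwards that the fit of the 6 arrays alone also called, and 0 of the 15 were called under every alternative. Klf15, a glucocorticoid-responsive transcription factor gene, differed by -1.72 ± 0.30 and Col8a2 by -1.68 ± 0.38. Igfbp1, made mainly by liver, differed by -1.71 ± 0.42, from 3.93, 1.46 and 2.25 to 1.25, 0.23 and 1.04. Zfp386 differed by -1.74 ± 0.32, but 2 of its 4 probes had the opposite sign. Of fatty acid oxidation genes 1 of 21, the thiolase gene Acaa2, was called (-0.91 ± 0.13), against 1.66% of all genes called lower.

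Markers of columnar, gastric and pancreatic epithelium held 1 called gene. Among all genes 4.19% were called higher and 1.66% lower, so lists this short would hold few calls at those shares. At an unadjusted p under 0.05 the shares were 11.4% and 7.2%. Of 13 stomach markers and 12 pancreatic acinar markers 0 were called by limma, and 1 and 0 had an unadjusted p under 0.05. The smallest p-values were those of Gkn3 (0.65 ± 0.23) and Pnlip (0.24 ± 0.13). The pancreatic enzyme genes Cela1 and Amy2a5 lay between -1.81 and -0.73 and between -0.29 and 0.35. Of 19 columnar and intestinal markers only Spink4, a protease inhibitor gene of goblet cells, was called: its levels were 0.00, 0.07 and 0.06 on the gastric and 2.36, 2.38 and 2.38 on the duodenal arrays (2.33 ± 0.15, adjusted p = 1.68e-07). Krt8 and Krt18, keratins of simple epithelium, stayed below the reference on all 6 arrays (-3.88 to -3.06 and -3.53 to -3.17). Of 17 genes of the bile acid and nuclear receptor response 0 were called by limma and 2 had an unadjusted p under 0.05, and Cyp3a13 had the smallest p at 5.64, 5.90 and 5.79 against 6.00, 6.71 and 6.13 (0.51 ± 0.17, adjusted p = 0.0983).

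Markers of muscle and liver varied between single arrays. The mean of 28 skeletal muscle genes was 4.71, 1.40 and 1.56 on the gastric and 2.72, 3.11 and 2.76 on the duodenal arrays, with 0 called by limma and 0 at an unadjusted p under 0.05. That list's median difference was -1.89 between the 2 arrays of low Cy5 signal and 1.51 among the other 4 arrays. The mean of 19 liver genes was 3.29, 2.53 and 3.65 on the gastric and 3.61, 0.96 and 3.68 on the duodenal arrays, again with 0 by either rule. Albumin, Alb, lay at 4.75, 4.05 and 4.26 and at 4.50, 1.03 and 4.73, and its mean without reflux was 0.00. Duodenal replicate 2 thus had the lowest liver level of the 6 arrays. Among 13 smooth muscle genes only Tagln was called, and lower (-1.18 ± 0.30), but not under 7 of 27 alternatives. Before adjustment 5 of the 13 had a p under 0.05 and a lower duodenal mean, as had 7.2% of all genes. By limma's adjusted test 4.19% of all genes were called higher and 1.66% lower. The part of muscle and liver RNA in the called differences was not tested beyond a fit with the skeletal muscle mean as a covariate, which called 1538 genes and kept 1202 of the 1203.

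Interferon-stimulated genes were set by a single gastric array. All 31 tested members had a lower duodenal than gastric mean, from -1.71 to -0.15 with a median of -1.05. By limma 0 were called, against 1.66% of all genes called lower. At an unadjusted p under 0.05 there were 6, against 7.2% of all genes lower by that rule. The mean of the list was -0.51, -1.30 and 2.16 on the gastric and -0.83, -1.11 and -0.79 on the duodenal arrays. Usp18, an interferon-induced protease gene, lay at -1.60, -1.53 and 1.34 on the gastric and -2.09, -2.56 and -2.24 on the duodenal arrays (-1.70 ± 0.54, adjusted p = 0.075). Gastric replicate 3 alone was high, and without it the list's median was -0.02 with 0 called. Without gastric replicate 1 or 2, 4 and 8 members were called lower, and with array weights 29.

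The size of the differences in the 2 arrays of low Cy5 signal and in the other 4 was close for some genes and far apart for others. Between those 2 arrays Epgn differed by 4.97 and among the other 4 by 4.12, S100a8 by 5.98 and 5.56, Il24 by 3.01 and 2.72 and Csf3 by 4.82 and 3.86. Il1b differed by 1.09 in the pair and 4.62 among the other 4 arrays, Cxcl5 by 0.77 and 5.07, and Krt1 by -1.37 and -4.66. Among other genes with large differences downwards, Cyp1a1 differed by -1.55 and -3.61, Ces1f by -1.03 and -2.90 and Col8a2 by -2.95 and -1.05.

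**Figure D4:**
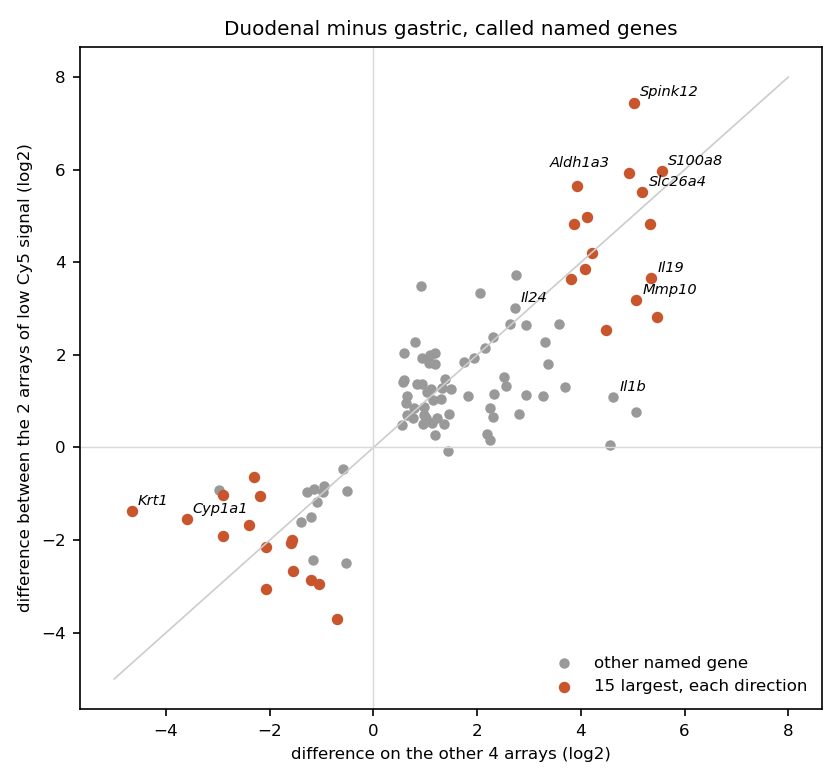
Duodenal minus gastric difference (log2) of the called named genes reported here among the other 4 arrays (horizontal axis) and between the 2 arrays of low Cy5 signal, duodenal replicate 2 minus gastric replicate 1 (vertical axis); the line marks equal values. The 15 largest differences in each direction keep their sign on both axes, and Il1b and Krt1 lie nearer to 0 on the vertical axis.

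The wild-type groups offered the same contrast in other mice, 3 against 3 arrays, in which 13.9% of genes were called higher and 9.73% lower under duodenal reflux. Of the 15 largest differences upwards in the Nrf2-null, 12 were called higher in the wild type too, and all 15 had the same direction there. Of the 15 downwards, 9 were called lower in the wild type and 14 had the same direction. Epgn differed by 3.68 ± 0.54 in the wild type, S100a8 by 8.05 ± 0.79, Slc26a4 by 3.69 ± 0.72, Krt1 by -3.78 ± 0.74 and Cyp1a1 by -3.66 ± 0.51. The wild-type gastric arrays were scanned on another day than the other 9 arrays of both contrasts.

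The difference between the genotypes in this contrast was tested directly, and 273 genes (1.33%) were called, 129 (0.627%) with the Nrf2-null difference above and 144 (0.7%) below that of the wild type. That count depended strongly on the setting: with median centring it was 4 (3 above and 1 below), in a fit of the 4 groups alone 9, with scan day as a block 5. Leaving out single arrays gave 11 to 2767 genes: 2767 without Nrf2-null gastric replicate 1, 2217 without wild-type gastric replicate 1, 73 without Nrf2-null gastric replicate 2, 145 and 15 without Nrf2-null duodenal replicates 1 and 3, 21 and 29 without wild-type gastric replicates 2 and 3, and 65, 11 and 19 without wild-type duodenal replicates 1, 2 and 3. Gsr was among the genes called: it differed by 1.93 ± 0.15 in the Nrf2-null and by 0.09 ± 0.15 in the wild type, where its mean was -0.74 ± 0.19 (SD, n = 3) under gastric and -0.65 ± 0.16 (SD, n = 3) under duodenal reflux. The genotype difference of Gsr was 1.85 ± 0.22 (adjusted p = 0.00256). Akr1b8 rose by 1.39 ± 0.22 in the Nrf2-null and fell by 0.89 ± 0.22 in the wild type (genotype difference 2.28 ± 0.31, adjusted p = 0.0095). Under duodenal reflux the Nrf2-null mean of Gsr was 0.08 and that of Akr1b8 -1.35, against -0.65 and -1.07 in the wild type. Dio2 differed by 4.00 ± 0.49 in the Nrf2-null and by 0.61 ± 0.49 in the wild type, whose gastric mean of 3.23 was already high (3.39 ± 0.70, adjusted p = 0.0305). Il24, Spink4 and Timp1 also had larger differences in the Nrf2-null, by 1.34 ± 0.25, 1.44 ± 0.22 and 1.90 ± 0.36.

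**Figure D5:**
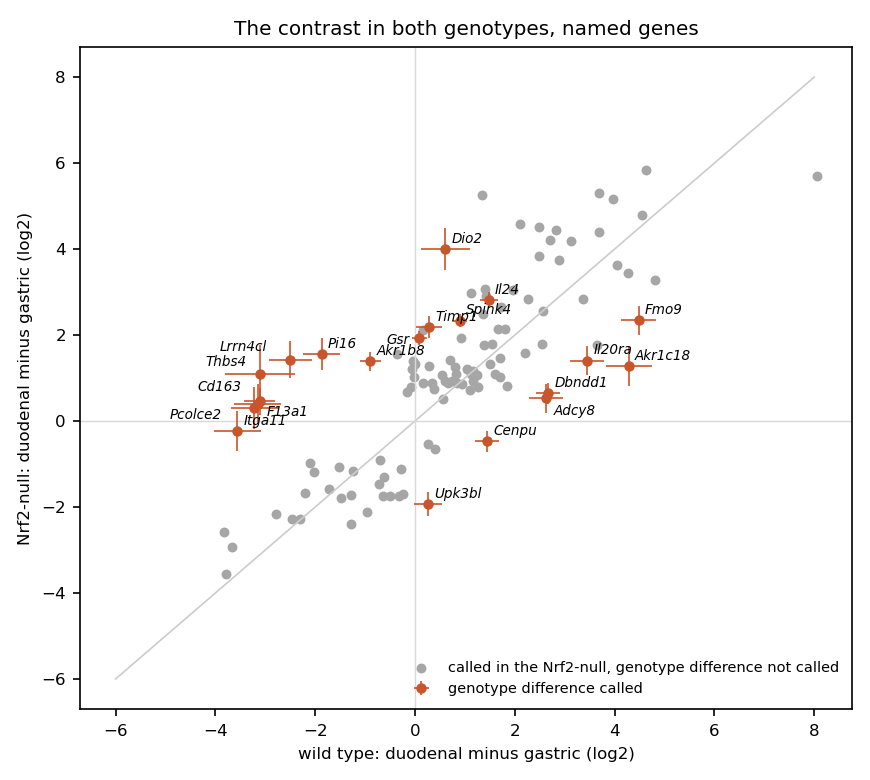
Duodenal minus gastric difference (log2) in the wild type (horizontal axis) and in the Nrf2-null (vertical axis) of the named genes reported here; orange points with standard errors passed the test of the genotype difference, grey points were called in the Nrf2-null without it, and the line marks equal differences. Most grey points follow the line, and Dio2, Gsr and Akr1b8 lie above it.

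Cd163, F13a1, Thbs4 and Pcolce2 were lower under duodenal than gastric reflux in the wild type and were not called in the Nrf2-null. Cd163, a haemoglobin scavenger receptor of resident macrophages, lay at 5.16, 3.29 and 4.92 on the Nrf2-null gastric and 4.84, 4.90 and 5.01 on the duodenal arrays, with overlapping groups (0.46 ± 0.31, adjusted p = 0.485). In the wild type it went from a mean of 4.51 ± 0.08 (SD, n = 3) to 1.40 ± 0.11 (SD, n = 3), and the genotype difference was 3.57 ± 0.44 (adjusted p = 0.00256). F13a1, the coagulation factor XIII subunit of macrophages, and the matrix genes Thbs4 and Pcolce2 had genotype differences of 3.52 ± 0.68, 4.19 ± 0.98 and 3.55 ± 0.66. In the other direction Akr1c18 rose by 4.28 ± 0.46 in the wild type and differed by 1.27 ± 0.46 in the Nrf2-null (adjusted p = 0.122 there), Fmo9 rose by 4.48 ± 0.35 and 2.34 ± 0.35, and the receptor subunit gene Il20ra by 3.45 ± 0.34 and 1.41 ± 0.34. With software-made or deposited log ratios the sign of the Fmo9 genotype difference turned.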

How the data were processed

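RNA of 24 mouse oesophagi was measured on 2-colour Agilent arrays, 3 in each of 8 groups, and the members and gene lists were chosen with earlier results of these data known. Per the file headers, the authors' scanner software gave Cy5 and Cy3 intensity values and a log10 ratio for each spot; Agilent Feature Extraction 9.1 is the software per the submitters' processing notes, whereas the file headers of the 6 arrays give version 10.7.3.1. The authors also deposited a value table, read here as log2 ratios of Cy5 over Cy3 from its slope of 2.68 to 3.14 on the log10 ratios; no source used here gives its centring. With limma 3.58.1 in R 4.3.3, intensities were background corrected (normexp, offset 50) and normalized by loess, outlier spots were left out, and outlying local backgrounds were replaced by the array's median. The brightest probe stood for a gene. Tested were 20565 genes whose Cy5 signal was well above background on every array of some group. A single limma model of 8 group means was fitted on 22 samples, the Nrf2-null mixed reflux arrays being averaged as 1 sample, and Benjamini-Hochberg adjusted p-values under 0.05 were called. The fit was tested on simulated data. The dyes were not swapped, so dye bias is common to all arrays and cancels in a difference between groups only where it does not depend on signal. Genes were named by rule: the 15 largest called differences in each direction whose groups did not overlap, the 5 largest of each list, and large called genotype differences. Some genes are on more than 1 list, so the counts of the lists are not independent of each other. No depth exists for arrays, and 3 arrays a group limit the precision. The alternatives changed background, normalization, filter, probes, samples, scan day, slide, muscle content, array weights and single arrays. Replicate numbers did not pair the arrays: deviations of arrays with the same number correlated at -0.653, -0.447 and 0.57. Some named results are not reported here.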

Additional observations from a re-analysis of the deposited data

Results flagged for a closer look

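The duodenal minus gastric difference itself differed between the genotypes, by the test of that difference in the limma model, for the named genes below. The values are the Nrf2-null difference minus the wild-type difference on the log2 scale. The gastric arrays of the wild type were scanned on another day than the other arrays of this contrast, and the part of the scan day was not tested beyond the fit that holds it as a block, which called 5 genes in all.

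The difference was above that of the wild type in the Nrf2-null for genes of matrix and fibroblasts: Thbs4 by 4.19, Lrrn4cl by 3.92, Pcolce2 by 3.55, Pi16 by 3.43 and the collagen receptor gene Itga11 by 3.33. The macrophage genes Cd163 and F13a1 stood at 3.57 and 3.52. The epithelial and secreted genes Dio2, Akr1b8, Timp1, Gsr, Spink4 and Il24 stood at 3.39, 2.28, 1.90, 1.85, 1.44 and 1.34.

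The difference was below that of the wild type for Akr1c18 (-3.01), Upk3bl (-2.19), Fmo9 (-2.14), Adcy8 (-2.09), Il20ra (-2.05), Dbndd1 (-2.03) and the centromere gene Cenpu (-1.92).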

How the results depend on the processing

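The count of 1203 genes called between duodenal and gastric reflux was 300 with median centring, 59 in a fit of the 6 arrays alone, 2978 when scan day was a block, 3938 when slide was a fixed block, 4251 with only the arrays on the shared slide, 3816 with array weights and 738 to 3956 without single arrays. Among alternatives chosen after seeing the data it was 2704 with the 2 arrays of low Cy5 signal as a block, 2563 without them, 722 with duodenal replicates 1 and 3 averaged and 555 in the 6 arrays with that block. The count of 273 genotype differences was 123 with the scanner software's log ratios, 117 with backgrounds as read, 4 with median centring, 150 with the deposited table, 9 in a fit of the 4 groups alone, 927 with the mixed arrays as 3 samples, 5 when scan day was a block, 780 and 51 when slide was a fixed or a random block, 568 with the muscle covariate, 7442 with array weights, 11 to 2767 without single arrays, and, added later, 1494, 2398 and 41 with the low Cy5 block, without those arrays and with the averaged pair. The replicate block, although the numbers do not pair the arrays, gave 973 and 98. The wild-type groups share no slide, so the shared-slide alternative was not run for the genotype difference. The genotype difference of Fmo9 turned from -2.14 to 1.04 with the software's log ratios and to 0.37 with the deposited table; the cause was not tested. Genes not well above background have only a bound.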

Other observations

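Junction, clock and signalling genes outside the lists described above held a few called differences. Of all genes 4.19% were called higher and 1.66% lower. Cldn7, a claudin of epithelial junctions, lay at -1.39, -1.81 and -2.10 on the gastric and 0.65, -0.06 and 0.54 on the duodenal arrays (2.15 ± 0.28), and Cldn12 rose by 1.08 ± 0.18, 2 of 18 tested junction genes. Of 18 clock genes Nfil3 and Per2 rose, by 1.10 ± 0.14 and 1.02 ± 0.26, with 1 of the 2 probes of Per2 opposite in sign. Of 19 p53 targets only Pmaip1, the pro-apoptotic NOXA gene, was called (1.79 ± 0.30). Of 23 Wnt pathway genes only Nkd1, a feedback inhibitor, was called, and lower (-1.59 ± 0.29).

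Energy metabolism and adhesion genes were not called by limma's test: 0 of 46 oxidative phosphorylation genes, 0 of 19 TCA cycle genes and 0 of 18 desmosome and adherens junction genes passed. At an unadjusted p under 0.05 the counts of these lists were 4, 1 and 6. By that rule 11.4% of all genes were higher and 7.2% lower.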
